A study of Rattus norvegicus with 10 samples.

Results

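A set of 8 genes was described whose signal stood apart in both samples of a single rat mammary tumour. They are Ephx2, Rasl12, Dcaf12l1, Lao1 and Mtus2, which were high in tumour 37I1, and Krt12, Abca1 and Elavl1. Krt12 was high and Abca1 was low in tumour 32D1. Elavl1 was low in tumour 52I4 by 2-fold or more on 1 of its 3 probe sets. A probe set, the group of short oligonucleotides on the array that reads 1 stretch of transcript, was called set apart when both arrays of a tumour lay beyond all 8 other arrays on the same side by at least 1 on the log2 scale, which is 2-fold. The members are the 8 genes, with all 14 probe sets annotated to one of them alone, of 14217 genes with 20826 such probe sets. They were picked from the measured signals themselves, so their levels by tumour are given as a description without a test.

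The arrays came from total tumours and biopsies of 5 mammary tumours, which the labels call 31D3, 32D1, 37I1, 50I1 and 52I4. Female Sprague-Dawley rats, of an outbred stock, had developed them after 1 oral dose of 100 mg/kg of DMBA, a carcinogenic polycyclic aromatic hydrocarbon, and the rats had no other treatment. The total tumour was collected at 19 weeks and the trucut needle biopsy of the same tumour at 12 weeks, which gave 5 total tumours and 5 biopsies on 10 arrays. All groups therefore carry DMBA, and no normal mammary gland was analysed here. Whether each tumour grew in its own rat is not stated in the labels, so a p-value measures only the spread between these tumours.

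The members have unlike roles. Ephx2 encodes soluble epoxide hydrolase, which turns fatty acid epoxides into diols, and Lao1 encodes an L-amino acid oxidase, an enzyme that releases hydrogen peroxide and that is known from milk in mice. Rasl12 is a small GTPase of the Ras family, Dcaf12l1 is a WD repeat protein related to the DCAF12 substrate receptor of the CUL4 ubiquitin ligase, and Mtus2 is a microtubule-associated scaffold protein. Krt12 is the type I keratin of the corneal epithelium, Abca1 is the transporter that hands cellular cholesterol to apolipoprotein A1 and is induced by the oxysterol receptors LXR, and Elavl1, also called HuR, is a widely expressed protein that binds AU-rich elements in mRNAs. Since a probe set reads only its own stretch of a transcript, different probe sets of a gene can disagree, for instance where transcripts end at different places or where a base change lies under the probes. The probes' sequences were not used here, so these cases cannot be told apart for any member.

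Promoters are shown for the 4 genes with an entry that were high together in 37I1 and for the 2 genes set apart in opposite directions in 32D1, so that the sequences of genes with a shared pattern can be compared. RefSeq promoters of the rat assembly GRCr8 were matched by symbol for 7 of the 8 genes. Each line gives the 250 bases before the annotated start, and for Mtus2, with 2 starts in the table, the first listed start was taken. Capitals mark every match, on either strand, of 3 motifs, namely the TATA box TATAAA, the GC box GGGCGG and the AP-1 site TGANTCA. Rasl12 lies at chr8:74812750-74812999 (plus strand), Dcaf12l1 at chrX:128576589-128576838 (minus strand) and Lao1 at chr5:137858783-137859032 (plus strand). Mtus2 lies at chr12:12114504-12114753 (minus strand), Krt12 at chr10:84874266-84874515 (minus strand) and Abca1 at chr5:72596474-72596723 (minus strand).
Rasl12: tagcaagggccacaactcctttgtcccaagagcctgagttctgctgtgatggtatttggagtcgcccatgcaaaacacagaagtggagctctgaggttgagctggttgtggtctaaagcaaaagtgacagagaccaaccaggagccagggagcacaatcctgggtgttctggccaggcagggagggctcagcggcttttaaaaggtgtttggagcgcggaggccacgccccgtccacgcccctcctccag
Dcaf12l1: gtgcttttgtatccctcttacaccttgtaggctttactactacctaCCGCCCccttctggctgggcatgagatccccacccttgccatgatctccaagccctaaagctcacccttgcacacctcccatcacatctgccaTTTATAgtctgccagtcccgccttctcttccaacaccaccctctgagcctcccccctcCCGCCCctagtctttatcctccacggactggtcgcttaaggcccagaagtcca
Lao1: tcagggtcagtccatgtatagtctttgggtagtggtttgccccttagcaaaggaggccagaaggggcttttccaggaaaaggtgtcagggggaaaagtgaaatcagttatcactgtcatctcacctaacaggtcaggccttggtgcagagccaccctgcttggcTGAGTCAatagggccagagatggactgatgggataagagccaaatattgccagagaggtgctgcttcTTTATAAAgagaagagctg
Mtus2: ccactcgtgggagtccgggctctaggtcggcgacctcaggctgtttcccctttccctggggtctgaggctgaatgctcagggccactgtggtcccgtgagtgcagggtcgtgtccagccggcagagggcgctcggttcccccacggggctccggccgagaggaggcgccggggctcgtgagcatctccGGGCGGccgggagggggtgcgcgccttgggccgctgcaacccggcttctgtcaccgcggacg
Krt12: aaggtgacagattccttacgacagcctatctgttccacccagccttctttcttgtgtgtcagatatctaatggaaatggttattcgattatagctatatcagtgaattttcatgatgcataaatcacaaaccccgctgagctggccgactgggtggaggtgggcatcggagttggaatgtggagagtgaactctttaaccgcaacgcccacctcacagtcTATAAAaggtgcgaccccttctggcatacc
Abca1: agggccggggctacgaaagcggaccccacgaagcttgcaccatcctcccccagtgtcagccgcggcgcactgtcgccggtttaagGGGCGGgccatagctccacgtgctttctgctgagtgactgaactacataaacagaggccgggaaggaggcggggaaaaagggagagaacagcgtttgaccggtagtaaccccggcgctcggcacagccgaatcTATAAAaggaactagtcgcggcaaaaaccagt

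Among the genes high in 37I1, no motif was found in all 4 windows. Rasl12 held none of the 3 motifs, Dcaf12l1 held 1 TATAAA and 2 GGGCGG, Lao1 held 2 TATAAA matches that overlap on opposite strands and 1 TGANTCA, and Mtus2 held 1 GGGCGG. Krt12 held 1 TATAAA. Abca1 held 1 TATAAA and 1 GGGCGG. Of 33469 promoters of the same length, 12.9% held TATAAA, 30.5% GGGCGG and 6.34% TGANTCA. The number of CG dinucleotides was 0 in Lao1, 5 in Dcaf12l1, 7 in Rasl12, 8 in Krt12, 21 in Abca1 and 25 in Mtus2, beside a median of 5 over all promoters. A match is a description of the letters in the window and no evidence that a factor binds there.

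In the series as a whole, 92 of 31042 probe sets, or 0.296%, were set apart in a single tumour, 52 of them higher (0.168%) and 40 lower (0.129%). Of the 14 member probe sets, 10 were set apart, 7 higher and 3 lower, a count that the choice of members fixed. Among all probe sets, tumour 37I1 held 33 higher (0.106%) and 15 lower, tumour 32D1 held 5 higher (0.0161%) and 13 lower (0.0419%), and tumour 52I4 held 8 higher and 7 lower (0.0226%). By tumour the members' count was 6 higher in 37I1, 1 higher and 2 lower in 32D1 and 1 lower in 52I4, and none stood apart in 31D3 or 50I1. Among single-gene probe sets set apart and higher in 37I1, Dcaf12l1, Ephx2, Lao1, Mtus2 and Rasl12 stood at ranks 3, 4, 8, 13 and 19 by gap, behind the homeobox gene Hoxc9 with a gap of 3.24 and Plppr4 with 2.25. Krt12 stood second among those higher in 32D1, behind the interferon-induced GTPase Mx2 with 2.09. A further probe set of Mx2 was not set apart in 32D1 but was higher in 37I1, by 1.52. Abca1 and Elavl1 led the lower ones of their tumours.

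**Figure D1:**
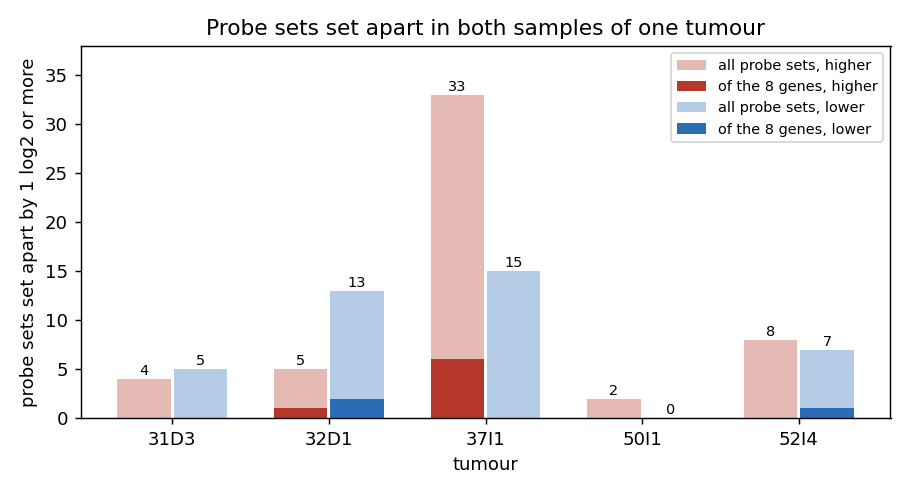
Number of probe sets set apart by 1 log2 or more in both samples of a tumour (y axis), by tumour (x axis), with separate bars for higher and lower probe sets. Tumour 37I1 had the most, with 33 higher and 15 lower, and 50I1 the fewest, with 2 higher and 0 lower.

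The arrays resembled each other across all probe sets, with Pearson correlations of 0.974 to 0.986 within a tumour and of up to 0.989 between tumours. The epithelial genes Krt8, Krt18 and Epcam had log2 signals of at least 11.39, 11.85 and 12.75 on every array. Not every gene of the mammary epithelium list, with 16 of 16 genes measured, was high. Foxa1 had 3.73 to 4.95 over the arrays, and the casein gene Csn2 ran from 3.57 to 13.17. In 37I1 the smooth muscle list, with 8 of 8 genes measured, averaged 9.32 in the total tumour and 10.09 in the biopsy, against 8.83 to 9.55 on the other arrays. Of the 10 probe sets of the smooth muscle list 1 was set apart, that of the actin gene Actg2. It had 10.75 in the 37I1 total tumour and 12.26 in the 37I1 biopsy, against 8.62 to 9.72 elsewhere. The myoepithelium list, with 9 of 9 genes measured, shares Acta2, Myh11 and Cnn1 with the smooth muscle list. It averaged 10.35 in the 37I1 total tumour and 10.83 in the 37I1 biopsy, against 9.97 to 10.57 elsewhere. Of its 12 probe sets 0 were set apart. The skeletal muscle list, with 9 of 10 genes measured, averaged 5.38 and 5.77 in 37I1, against 4.78 to 5.83. Of the 14 probe sets of the skeletal muscle list 1 was set apart, that of the actin gene Acta1, which had 9.48 in the 37I1 total tumour and 11.93 in the 37I1 biopsy, against 4.04 to 8.13 elsewhere. Over all probe sets 0.296% were set apart, and counts of 1 in lists this short say little of the lists. In the same 37I1 samples Ckm had 3.93 and 4.06, Myh4 2.97 and 2.91, Tnni2 6.63 and 6.59 and Myh1 9.93 and 10.63, and none of these was set apart. The fibroblast list averaged 10.35 in the 37I1 total tumour and 8.09 in the 37I1 biopsy, the lowest of the arrays, and the macrophage list 10.13 and 8.29. The part of such cells in the members' pattern was not tested, and in bulk samples more cells of a type and more RNA per cell cannot be told apart.

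Ephx2 (1369663_at) had the wider gap of the pair of enzymes. Its log2 signal was 7.21 in the 37I1 total tumour and 7.71 in the 37I1 biopsy, against 4.64 to 5.38 with a median of 4.95 on the other 8 arrays. Both 37I1 samples were high and every other array was low, with a gap of 1.82 between the lower 37I1 sample and the nearest other array, which is 3.54-fold. The mean of 37I1 lay 2.51 above the median of the others, or 5.69-fold. The nearest array was the 31D3 biopsy at 5.38.

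Lao1 (1385064_at), the amino acid oxidase, had 7.47 in the 37I1 total tumour and 6.66 in the 37I1 biopsy. The other 8 arrays lay between 4.65 and 5.11 with a median of 4.87. The gap was 1.56, or 2.94-fold, and the mean of 37I1 was 2.20 above that median. Within 37I1 the total tumour was the higher sample, whereas for Ephx2, Rasl12, Dcaf12l1 and Mtus2 the biopsy was the higher one.

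Rasl12 (1378484_at), the small GTPase, had 7.53 in the 37I1 total tumour and 7.76 in the 37I1 biopsy, against 5.82 to 6.48 with a median of 6.08 elsewhere. Its gap of 1.05, or 2.07-fold, was the smallest among the members that met the rule. The other tumours were not without signal, since all 10 arrays lay above 5.15, the limit below which the dimmest 40% of probe sets lie by their mean. Detection calls were not used here, so this limit only stands in for a background.

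Dcaf12l1 (1382621_at), which lies on the X chromosome, had 5.51 in the 37I1 total tumour and 5.73 in the 37I1 biopsy. The other arrays lay between 3.12 and 3.57 with a median of 3.40. They were all below the dim limit, and both 37I1 arrays were above it. The gap was 1.94, or 3.84-fold, the widest of the 5 members in 37I1, and the mean of 37I1 lay 2.22 above the median of the others.

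Mtus2, the microtubule scaffold, was read by 2 probe sets that both stood apart in 37I1. Probe set 1385948_at had 5.18 in the 37I1 total tumour and 5.80 in the 37I1 biopsy, against 3.55 to 3.92 elsewhere, with a gap of 1.26 or 2.39-fold. Probe set 1390051_at had 5.58 and 6.83 in the same order, against 3.70 to 4.39 elsewhere, with a gap of 1.18 or 2.27-fold. Their means in 37I1 lay 1.64 and 2.26 above the median of the others. Across the 10 arrays, which share pairs from 1 tumour, Pearson's r between the probe sets was 0.983, and over the 8 arrays outside 37I1 it was 0.823. On both probe sets those 8 arrays lay below the dim limit of 5.15, so the second r compares signals at that low level.

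Krt12 (1373010_at), the corneal keratin, had 6.47 in the 32D1 total tumour and 5.98 in the 32D1 biopsy. The other 8 arrays lay between 3.54 and 4.31 with a median of 3.86. Only the 32D1 arrays were above the dim limit. The gap was 1.67, or 3.19-fold, and the mean of 32D1 lay 2.37 above the median of the others.

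**Figure D2:**
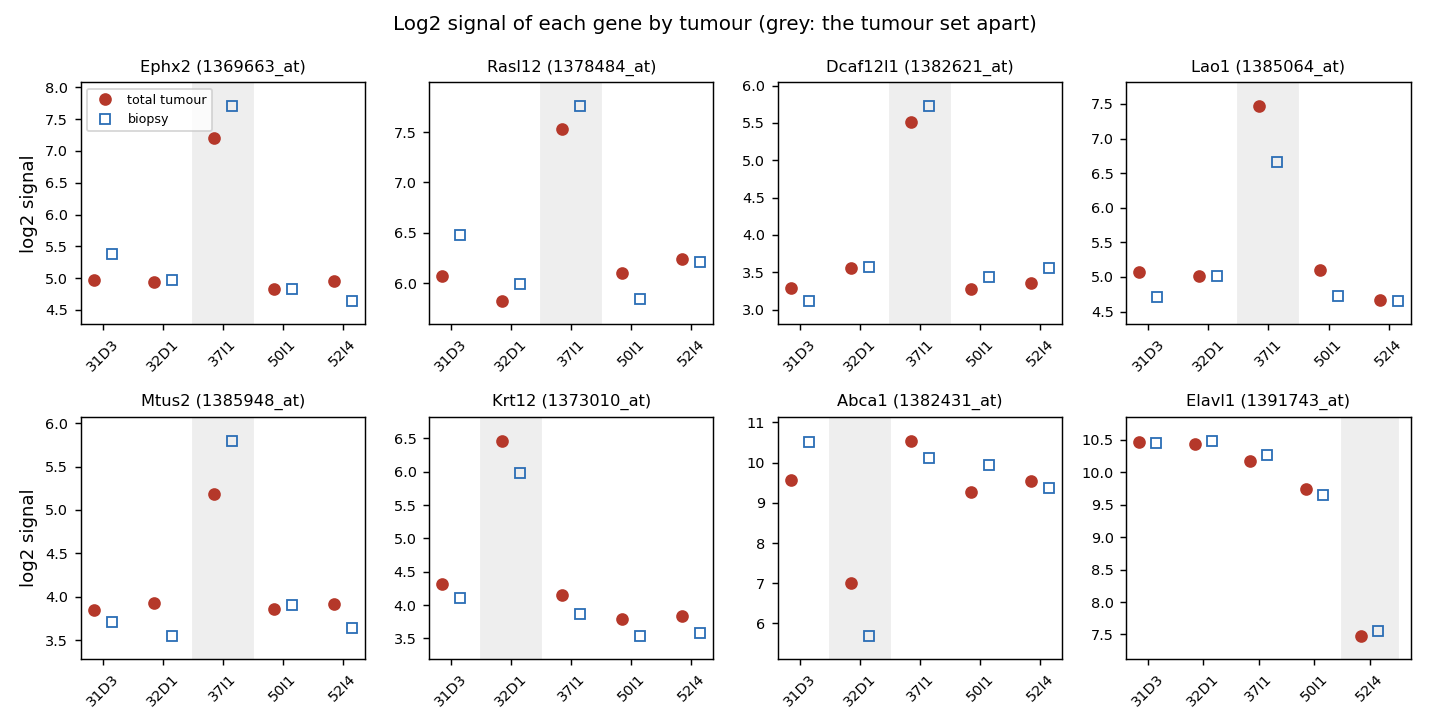
Log2 signal (y axis) of each gene's probe set with the largest gap, by tumour (x axis), with filled circles for total tumours and open squares for biopsies. The grey band marks the tumour set apart, 37I1 for Ephx2, Rasl12, Dcaf12l1, Lao1 and Mtus2, 32D1 for Krt12 and Abca1 and 52I4 for Elavl1, and in each panel both points in the band lie outside the range of the other 8.

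Abca1, the cholesterol exporter, was read by 4 probe sets, and all 4 had their lowest tumour mean in 32D1 but with different sizes. Probe set 1382431_at had 7.00 in the 32D1 total tumour and 5.69 in the 32D1 biopsy. The other total tumours had 9.56 in 31D3, 10.55 in 37I1, 9.27 in 50I1 and 9.53 in 52I4, and the other biopsies had 10.52, 10.11, 9.94 and 9.37 in the same order. Both 32D1 samples were low and the other 8 arrays were all higher, with a gap of -2.28 or 4.85-fold.

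The second Abca1 probe set, 1394490_at, also met the rule, with 6.57 in the 32D1 total tumour and 5.52 in the 32D1 biopsy, against 7.67 to 9.06 elsewhere and a gap of -1.09 or 2.13-fold. The other two did not. Probe set 1383355_at had 8.73 and 7.93 in 32D1, against 8.67 to 9.78, and the 50I1 total tumour at 8.67 and the 52I4 biopsy at 8.70 lay below the 32D1 total tumour. Probe set 1384381_at had 6.29 and 5.62 in 32D1, against 6.09 to 7.61, and overlapped with the same 50I1 array at 6.09. The means of 32D1 differed from the median of the other arrays by -3.41, -2.28, -1.05 and -1.06 in the order 1382431_at, 1394490_at, 1383355_at and 1384381_at. All 4 probe sets thus put 32D1 low, and the difference from the others was more than 2-fold on the mean for each.

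All 4 Abca1 probe sets also had a higher signal in the 32D1 total tumour than in the 32D1 biopsy, by 1.30, 1.06, 0.79 and 0.67 in that order. Pearson's r between pairs of the 4 probe sets was 0.832 to 0.988 over the 10 arrays and 0.915 to 0.980 over the 8 arrays outside 32D1, so their signals also varied together outside 32D1. The low arrays of 1382431_at still lay above the dim limit of 5.15, as did those of Elavl1 1391743_at, so neither gene was off by this measure. The macrophage list, a cell type rich in Abca1, averaged 9.61 in the 32D1 total tumour and 9.96 in the 32D1 biopsy. The other arrays had 8.29 to 10.60. The part of macrophages in the Abca1 signal was not tested.

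Elavl1, the RNA-binding protein, was read by 3 probe sets that did not all agree. Both 52I4 samples were lowest on 1391743_at and, by a much smaller gap, on 1375892_at, but not on 1393188_at. Probe set 1391743_at had 7.48 in the 52I4 total tumour and 7.55 in the 52I4 biopsy. The other total tumours had 10.47 in 31D3, 10.43 in 32D1, 10.17 in 37I1 and 9.74 in 50I1, and the biopsies 10.44, 10.49, 10.27 and 9.65 in the same order. The gap to the nearest array was -2.11, or 4.31-fold, and the samples of a tumour lay close together.

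On the second Elavl1 probe set, 1375892_at, tumour 52I4 was also lowest, with 9.77 in the total tumour and 9.95 in the biopsy against 10.30 to 10.65 elsewhere, but by a gap of only -0.35 or 1.27-fold. On the third, 1393188_at, 52I4 had 6.90 and 6.80, inside the 6.66 to 7.15 of the other arrays. The means of 52I4 thus differed from the median of the others by -2.84, -0.47 and -0.05. Among the members' probe sets, 1375892_at was the one just outside the rule with a gap of its own, and Rasl12 with 1.05 and Abca1 1394490_at with -1.09 were those just inside. With 52I4 left out, 1391743_at set 50I1 apart from the rest by -0.43, so its level stepped down in a further tumour. Pearson's r of 1391743_at with 1375892_at was 0.890 over 10 arrays and 0.229 over the 8 outside 52I4.

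**Figure D3:**
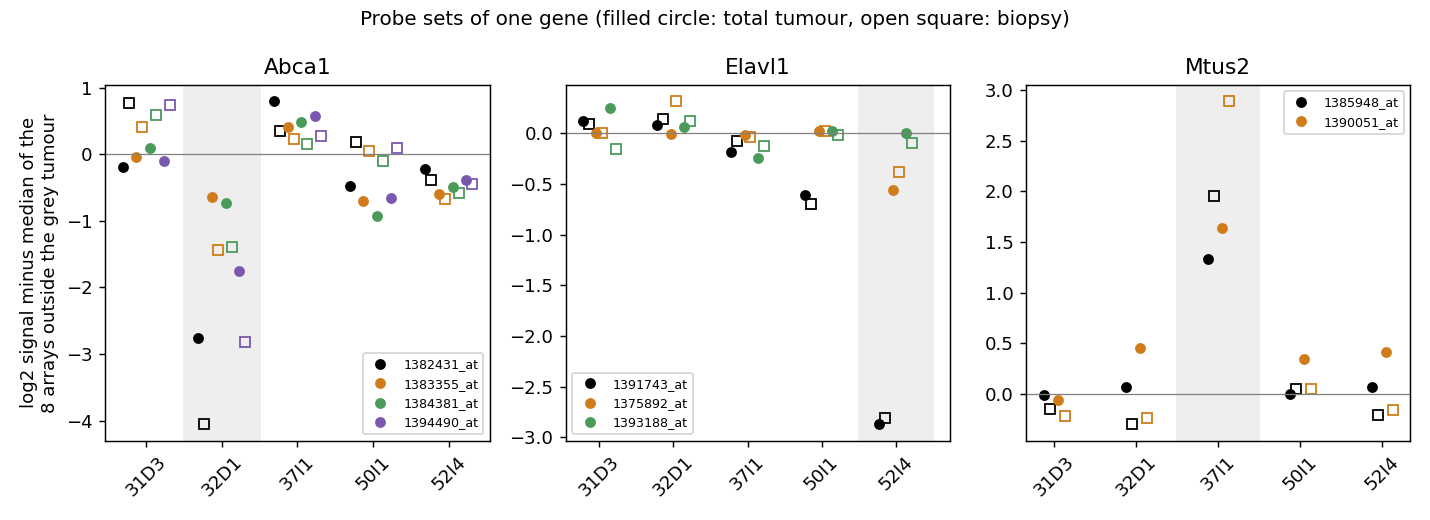
Log2 signal minus the median of the 8 arrays outside the tumour marked in grey (y axis) for every probe set of Mtus2, Abca1 and Elavl1, by tumour (x axis), with filled circles for total tumours and open squares for biopsies. The 2 Mtus2 probe sets lie together above 0 in 37I1, the 4 Abca1 probe sets all lie below 0 in 32D1 at differing depths, and the 3 Elavl1 probe sets spread from -2.84 to -0.05 on the tumour mean in 52I4.

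Only 3 of the 8 genes had a further probe set, so the question of agreement could not be put to Ephx2, Rasl12, Dcaf12l1, Lao1 and Krt12, with 1 probe set each. Of the 6 further probe sets of Mtus2, Abca1 and Elavl1, 3 put both arrays of the tumour beyond all others on the same side. Another 2, both of Abca1, put both arrays on that side of the median of the others, and 1 showed neither. The 3 were Mtus2 1390051_at, Abca1 1394490_at and, by a gap of only -0.35, Elavl1 1375892_at. Over the other 12 genes with a set-apart probe set and a further one, 11 of 18 further probe sets, or 61.1%, agreed by the same measure. For the members the share was 50%. These counts are too small to set one against the other.

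The 5 genes high in 37I1 were compared with each other on the arrays outside that tumour as well. Their 10 pairs had Pearson's r of 0.882 to 0.970 over 10 arrays, values that the rule itself sets because every gene was chosen as high in 37I1. Over the 8 arrays outside 37I1 the same pairs ran from -0.66 to 0.50 with a median of -0.14. On those arrays Dcaf12l1, Lao1 and Mtus2 lay below the dim limit of 5.15 throughout. Ephx2 lay above it only in the 31D3 biopsy, at 5.38. Most of these pairs thus compare signals at that low level, and they say little of whether the genes vary together. Ephx2 with Rasl12 was the highest pair and Ephx2 with Dcaf12l1 the lowest.

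Among probe sets with an SD of at least 0.5, the gene most like Mtus2 was Hoxc9, with r of 0.99 over 10 arrays and 0.55 over the 8 outside 37I1. Hoxc9, a homeobox transcription factor, had 7.71 and 8.96 in 37I1 against 3.75 to 4.47 elsewhere, and it also ranked first for Dcaf12l1, with 0.97 over 10 arrays and -0.23 over the other 8. For Ephx2 the first was Bfsp1, a lens filament gene, with 0.97 over 10 arrays and 0.77 over the other 8. For Lao1 it was the acute-phase gene Saa3, with 0.97 and 0.73. For Rasl12 it was Ephx2, with 0.97 and 0.50.

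Krt12 was closest to Prg2, an eosinophil granule protein gene, with r of 0.98 over 10 arrays and 0.76 over the 8 outside 32D1. Prg2 had 6.20 in the 32D1 total tumour and 5.45 in the 32D1 biopsy. Abca1 was closest to Frat2, with 0.91 and 0.27, and Elavl1 to Ro60, with 0.88 and 0.46. The 2 arrays of a tumour are not independent, and with so many candidates, 2802 for most genes, a high r is a description of these arrays alone.

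The genes beside the members in the GRCr8 gene order were read in the same tumours. For each member the 3 nearest genes on either side with a probe set of their own were taken, 48 genes with 70 probe sets, and 0 of the 70 stood apart in the member's tumour and direction by 1 or more. Over all probe sets that share was 0.106% for higher in 37I1, 0.0161% for higher and 0.0419% for lower in 32D1 and 0.0226% for lower in 52I4, so a count of 0 among so few says little of the neighbours. Beside the 37I1 genes, 4 of 41 probe sets were higher in 37I1 than all other arrays by any gap, with Slc46a3 next to Mtus2 at 0.47, Clu next to Ephx2 at 0.40, Clpx next to Rasl12 at 0.14 and Stag2 next to Dcaf12l1 at 0.02. Over all probe sets, 3.82% lay beyond the others and higher in 37I1 by any gap. In the member's direction it was 0 of 12 lower beside Abca1, with 3.32% over all probe sets, and 0 of 6 higher beside Krt12, with 4.08%. Beside Elavl1 it was 1 of 11 lower, Fry at -0.10, with 2.42% over all probe sets. Against the member's direction lay Katnal1 at -0.09 and both Slc7a1 probe sets at -0.16 and -0.06 beside Mtus2, Ctxn1 at 0.08 beside Elavl1 and Krt23 beside Krt12.

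Beside Krt12, itself high in 32D1, the keratin gene Krt23 went the other way. Krt23 had 6.26 in the 32D1 total tumour and 6.12 in the 32D1 biopsy, against 7.25 to 8.35 elsewhere, a gap of -0.98. Krt20, a keratin of intestinal and urothelial epithelium, had 8.75 in the 32D1 total tumour and 4.89 in the 32D1 biopsy, so its high level was in the late sample alone. The Krt12 signal in 32D1 was thus not shared, in both samples, by the keratin genes around it.

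**Figure D4:**
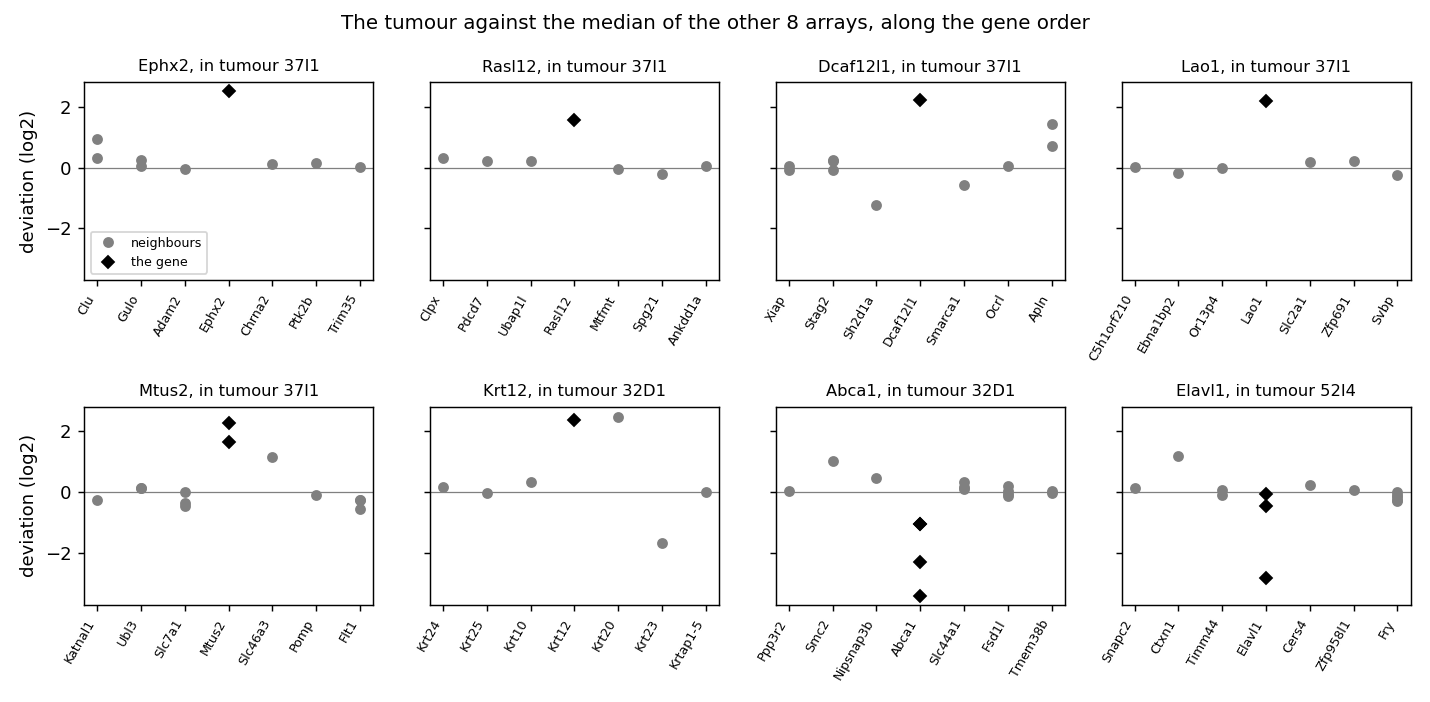
Deviation of the member's tumour from the median of the other 8 arrays on the log2 scale (y axis) for each member and the 3 genes on either side in the gene order (x axis), 1 panel per member. Beside Krt12, Krt20 at 2.48 and Krt23 at -1.67 deviate most, and over all neighbours the median deviation is 0.05.

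The design's own comparison, total tumour against biopsy within tumours, asked whether the members differed between the late and the early sample of a tumour. By the sample labels, age and way of sampling changed together, a needle biopsy at 12 weeks and a total tumour at 19 weeks, and cannot be told apart. The series text instead names a needle sample for the late moment. In limma with the tumour as a block, 0 of 31042 probe sets, or 0%, had an adjusted p under 0.05, and 2128 had an unadjusted p under 0.05, or 6.86%. Of the 14 member probe sets 0 passed, with adjusted p of 0.578 to 0.984, and 1 had an unadjusted p under 0.05. The members were chosen for both samples of a tumour lying on the same side of all other arrays. That choice favours a small difference within the member's tumour, so the members' result is partly set by it. Their differences, total tumour minus biopsy, ran from -0.12 to 0.31 with a median of -0.03, beside 0.02 over all probe sets. A mean over tumours can hide a difference within a pair, and Mtus2 1390051_at differed by -1.25 within 37I1.

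The smallest p among the members was for Krt12, which averaged 4.51 ± 1.11 in total tumours and 4.22 ± 1.01 in biopsies (SD, n = 5 each). The difference of 0.29 with an SE of 0.0824 was higher in the total tumour in 5 of 5 tumours, with an adjusted p of 0.578 in limma and 0.00975 unadjusted. Outside 32D1 every Krt12 array lay below the dim limit of 5.15, so most of these pairs compare signals at that low level. Lao1 averaged 5.47 ± 1.14 in total tumours and 5.15 ± 0.86 in biopsies. Its difference of 0.31 with an SE of 0.136 had the same direction in 4 of 5 tumours and an adjusted p of 0.729 in limma.

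Ephx2 averaged 5.38 ± 1.02 in total tumours and 5.50 ± 1.26 in biopsies, with a difference of -0.12 and an SE of 0.137. Abca1 1382431_at averaged 9.18 ± 1.32 in total tumours and 9.13 ± 1.96 in biopsies, with a difference of 0.06 and an SE of 0.321, the widest of the members. Elavl1 1391743_at averaged 9.66 ± 1.25 in total tumours and 9.68 ± 1.24 in biopsies, with a difference of -0.02 and the narrowest SE, 0.0778. The adjusted p in limma was 0.864, 0.975 and 0.960 for these.

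The pathway partners of the members were read from lists. Of 8 lists, one for each member's pathway or family, 138 of 167 genes were measured with 217 probe sets, and 0 passed the total tumour against biopsy test. None of the 217 was set apart, beside 0.296% over all probe sets, so the count is near that share and says little of the partners. Among cholesterol efflux genes, 17 of 20 measured, the phospholipid transfer protein gene Pltp had the widest range of tumour means, 1.80, followed by the lipogenic regulator Srebf1 with 1.19. Pltp was lowest in 37I1, with 11.29 in the total tumour and 8.68 in the biopsy. Among the ELAV and AU-rich element binding genes, 23 of 25 measured, Igf2bp2 ranged over 2.04 and Anp32a over 1.05. Among type I and corneal keratins, 17 of 23 measured, Krt20 ranged over 2.76 and Krt23 over 2.06.

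Among epoxide and oxylipin enzymes, 17 of 20 measured, Cyp1b1, a hydrocarbon-metabolising cytochrome, ranged over 1.96 and the lipoxygenase gene Alox15 over 1.94. The high 32D1 mean of Alox15 came from the total tumour, with 9.02, against 5.01 in the 32D1 biopsy. Among amino acid and amine oxidases, 11 of 14 measured, the collagen cross-linking gene Lox ranged over 3.35 and Loxl1 over 2.19. Their low 37I1 means came from the biopsy, since Lox had 9.12 in the 37I1 total tumour and 4.18 in the 37I1 biopsy, and Loxl1 had 9.64 and 6.34. Among Ras-like GTPases, 14 of 20 measured, Rasd1 ranged over 2.12 and Rasd2 over 1.14. Rasd1 was highest in 52I4, with 7.95 in the total tumour and 10.71 in the biopsy. Among CUL4 ligase genes, 19 of 24 measured, the replication-linked receptor gene Dtl ranged over 1.81 and Dcaf4 over 0.68. Among microtubule plus-end genes, 20 of 21 measured, Map2 ranged over 2.28 and Tacc3 over 1.18. The median total tumour minus biopsy difference of the lists lay between -0.04 and 0.10.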

How the data were processed

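The authors deposited log2 signals per probe set, normalized with RMA (Robust Multichip Average), per the submitters' processing notes. RMA corrects background, gives all arrays 1 distribution and summarises probes, so shifts shared by most transcripts are removed. Its version and the chip definition were not given in the sources used. Log2 values ran from 2.34 to 14.26 and array medians from 5.99 to 6.11, and values were not transformed again. Precision is limited by the number of arrays.

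Of 31099 probe sets, 57 controls were left out. In the platform annotation 20826 had 1 gene, 436 several and 9780 none, and probe sets with several genes named none. Groups and pairs follow the labels' moment and tumour name, and deviations from the group means correlated above 0.1 in 4 of 5 pairs. For the late sample the sample labels (total tumour) were followed, not the series text (needle sample).

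Total tumours were compared with biopsies by limma 3.58.1 (R 4.3.3) with a tumour block, no signal filter and Benjamini-Hochberg adjustment over all probe sets at 0.05. The fit was tested on simulated data. Named genes were the 8 members, the 3 most correlated genes of each, 3 neighbours on each side, the 2 largest gaps per tumour and direction, and 2 genes of each pathway list by range of tumour means. Marker genes such as Acta1 were named with their values known. The members and the lists, 8 of pathways and 14 of cell types, were chosen with earlier results of these data known. Alternatives were other normalizations, a filter, other gaps, no block, the methods' paired t-test, a trended robust prior and leaving out each tumour. Figures were drawn with matplotlib 3.10.9.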

Additional observations from a re-analysis of the deposited data

Results flagged for a closer look

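In groups of 5, 16 of 28 groups of member probe sets held a sample whose gap to its nearest neighbour was above 0.71 of the group's range, Dixon's 95% value. Chance flags about 1 in 20 groups, but the members were chosen because 1 tumour stood apart, so these flags add no support.

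In tumour 37I1 the ratio for total tumours and biopsies was 0.942 and 0.758 for Ephx2, 0.877 and 0.825 for Dcaf12l1, 0.845 and 0.819 for Lao1, and 0.941 and 0.843 for Mtus2 1385948_at. It was 0.755 for the Rasl12 total tumours alone and 0.907 for the Mtus2 1390051_at biopsies alone. In 32D1 it was 0.807 in total tumours and 0.768 in biopsies for Krt12, and 0.761 for the Abca1 1382431_at biopsies. In 52I4 it was 0.757 in total tumours and 0.717 in biopsies for Elavl1 1391743_at. For Elavl1 1375892_at the total tumours reached 0.933, with 52I4 at 9.77 and the other total tumours at 10.32 to 10.36. The gap of only 1.27-fold for this probe set was measured from the 52I4 biopsy.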

How the results depend on the processing

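The count of 92 set-apart probe sets became 326 with a gap of 0.5 and 9 with a gap of 2, and ran from 72 to 137 with each tumour left out. Further probe sets in agreement, 14 of 24 over all genes, became 67 of 116 with a gap of 0.5 and 3 of 8 with a gap of 2, and ran from 11 to 33 with each tumour left out, with 33 of 47 without 31D3 and 24 of 36 without 50I1. A tumour left out takes its own set-apart probe sets with it and leaves fewer arrays to exceed. The members' gaps kept their direction in every setting that gave a value. Under the other normalizations, the filter and each tumour left out, that of Ephx2 lay between 1.82 and 2.25, that of Abca1 1382431_at between -2.37 and -2.24 and that of Elavl1 1391743_at between -2.62 and -2.10. Measured as the tumour's mean against the median of the others, these were 2.51, -3.41 and -2.84. Since the members were chosen by such gaps, the kept direction adds no support. Another tumour left out can only keep or widen a gap, and the filter leaves it as it is. The mean against the median must have the sign of the gap.

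The count of total tumour against biopsy calls was 0 in limma with the tumour as a block, 0 with no replicate block, where 1873 probe sets had an unadjusted p under 0.05, and 0 by the methods' paired t-test, with 1959. The pairing thus changed no call. Among the members' differences 17 changed sign and 133 did not, and none was called. Under quantile normalization Abca1 1394490_at had 0.00444 and Mtus2 1385948_at -0.0424, and with each array centred on its median Elavl1 1391743_at had 0.0108. With each tumour left out, Abca1 ran from -0.25 to 0.31 for 1382431_at, from -0.24 to 0.15 for 1383355_at, from -0.22 to 0.15 for 1384381_at and from -0.31 to 0.16 for 1394490_at. Elavl1 1393188_at ran from -0.0105 to 0.12, Mtus2 1385948_at from -0.0619 to 0.19 and Mtus2 1390051_at from -0.0551 to 0.43. The cause was not tested. The absence of detection calls limits what can be said of low signals.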

Other observations

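Other genes were set apart in single tumours, and those with the widest gaps were taken by the naming rule. In 52I4 the MHC class II genes RT1-Bb and RT1-Ba had gaps of 7.15 and 1.87 on 1 probe set each. Their further probe sets did not agree, with deviations in 52I4 of -1.20 for RT1-Bb and of -1.13, -0.31 and 0.01 for RT1-Ba. The lower genes there were led by Elavl1 and by the oxygen sensor gene Egln3 with -1.31, and Ass1 was also lower with -1.12. In 37I1 the lower genes were led by Lef1, a Wnt pathway transcription factor, with -1.84 and by Sema3b with -1.39. In 31D3 the immediate early gene Fosb had 1.62 and Dnase1l3 1.23, with Col9a3 at -1.14 and Arxes1 at -1.11. In 50I1 the only gene was Itih2 with 1.17, and in 32D1 Dynlrb2 had -1.59 beside Abca1. No test was made of these gaps, which were read from the same signals.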
